A study of Arabidopsis thaliana with 9 samples.

Results

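The Aux/IAA and GH3 genes are the classical primary auxin response genes of plants. They were followed here as 35 genes, 28 Aux/IAA and 7 GH3, in 9 RNA-seq libraries of Arabidopsis thaliana inflorescences. Members were listed by gene ID, with earlier results of these data known. Each is the locus of the deposited table that lists the gene, and all 35 were found among 33871 loci. For statements on change a mean of at least 0.5 FPKM (fragments mapped to a locus, taken relative to its length and to the library's total) over the 9 libraries was asked for, which 33 members met, 27 Aux/IAA and 6 GH3.

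The genotype of all plants was 35S:AP1-GR ap1,cal. AP1-GR is the flower-inducing MADS-domain factor APETALA1 joined to the steroid-binding part of the glucocorticoid receptor, and the 35S promoter drives it in nearly all cells. In ap1 cal double mutants the apex makes a mass of meristems in place of flowers. The plants were 5 weeks old and had grown in soil at 22 °C in long days. Inflorescences of the first group were untreated, those of the second had cycloheximide, an inhibitor of translation elongation, for 2 h as the mock treatment, and those of the third had dexamethasone, which lets AP1-GR enter the nucleus, together with cycloheximide for 2 h. Each group had 3 libraries that the labels call biological replicates. The question of the study was which genes AP1 regulates. No group had dexamethasone without AP1-GR, so effects of the compound and of the fusion cannot be told apart, and neither can cycloheximide and the handling that went with it.

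Aux/IAA proteins repress transcription: they bind auxin response factors (ARFs) on DNA and bring in TOPLESS corepressors. Auxin joins Aux/IAA proteins to the F-box receptors TIR1 and AFB, after which the repressor is ubiquitinated and degraded and the ARFs act, also on the Aux/IAA and GH3 genes themselves. GH3 enzymes of this group link the auxin indole-3-acetic acid to amino acids, which takes active auxin away, so that both families are known as negative feedback in the pathway. Many of these genes are known to respond to auxin without new protein synthesis, and inhibitors of translation are known to raise several of their transcripts.

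Sequences are shown for the 2 features by which the genes are known, the auxin response element in the promoter and the degron in the coding sequence, both from RefSeq on TAIR10.1. The element was searched as TGTCTC and TGTCGG on both strands in the 300 bases before each RefSeq gene start. Either form was present in 17 of 35 member windows (48.6%) and in 17.3% of the windows of 27443 protein-coding genes. TGTCTC alone was in 14 member windows (40%, against 13% of all) and TGTCGG in 6 (17.1%, against 4.91%). The windows below belong to 3 members that rose with cycloheximide and whose RefSeq start lies within 50 bases of the start of the deposited locus. They were picked after the search to show 1, 2 and 3 elements, which are in capitals. They are GH3.3 on the minus strand at chr2:9866563-9866862, IAA1 on the plus strand at chr4:8360696-8360995 and IAA19 on the plus strand at chr3:5263701-5264000.

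GH3.3 promoter: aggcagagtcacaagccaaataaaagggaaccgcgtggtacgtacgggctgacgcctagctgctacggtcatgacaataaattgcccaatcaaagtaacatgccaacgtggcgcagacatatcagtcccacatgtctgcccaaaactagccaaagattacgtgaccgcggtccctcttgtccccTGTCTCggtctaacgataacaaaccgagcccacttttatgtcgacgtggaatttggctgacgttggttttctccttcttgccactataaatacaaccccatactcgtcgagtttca

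IAA1 promoter: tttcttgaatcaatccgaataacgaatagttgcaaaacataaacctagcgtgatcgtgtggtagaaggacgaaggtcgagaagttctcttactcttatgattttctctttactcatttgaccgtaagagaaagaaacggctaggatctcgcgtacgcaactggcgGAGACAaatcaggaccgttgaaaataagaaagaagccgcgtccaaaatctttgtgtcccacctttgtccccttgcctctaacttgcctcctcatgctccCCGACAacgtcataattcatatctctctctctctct

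IAA19 promoter: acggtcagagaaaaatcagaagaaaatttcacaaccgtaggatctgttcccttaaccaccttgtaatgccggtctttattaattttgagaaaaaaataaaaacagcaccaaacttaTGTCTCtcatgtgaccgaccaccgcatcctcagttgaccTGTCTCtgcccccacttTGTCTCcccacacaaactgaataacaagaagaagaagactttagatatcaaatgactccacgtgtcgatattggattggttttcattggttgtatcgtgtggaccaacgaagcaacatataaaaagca

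In GH3.3 and IAA19 the elements read TGTCTC on the strand of the gene, and in IAA1 both lie on the opposite strand, 1 of each form. Among the 22 members that rose with cycloheximide, described below, 12 windows (54.5%) held an element, and among the 11 tested members that did not rise, 4 (36.4%). No test was made on this difference, and a match is only a run of letters. RefSeq and deposited starts were within 50 bases of each other in 15 of 35 members and within 100 bases in 21. For IAA2 and GH3.1, whose windows held no element, the starts lay 295 and 267 bases apart, so that these windows do not sit at the start of the deposited locus. The same holds for IAA26, IAA9, IAA18 and IAA28, also without an element (393, 250, 234 and 211 bases), and for IAA16, with an element (289 bases). The windows of IAA9, IAA10, IAA32 and IAA34 overlap another gene, and those of IAA32 and IAA34 were counted as holding an element.

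The degron core, the short stretch by which the receptors recognise Aux/IAA proteins, was searched as an in-frame run of 4 codons, those in capitals below with any base in the last place of each codon but TGG, in the longest RefSeq coding sequence of each gene. It was present in 22 of 28 Aux/IAA genes and in no GH3 gene, and in 34 of 27444 protein-coding genes in all (0.124%). The 6 Aux/IAA genes without it were IAA20, IAA30, IAA31, IAA32, IAA33 and IAA34. The codons are shown, in capitals with 6 bases on each side, for IAA1, IAA3 and IAA18, which rose with cycloheximide, and for IAA9, which was the most abundant member in untreated tissue and fell. Those of IAA1 lie at chr4:8361439-8361462 (plus strand), of IAA3 at chr1:1129022-1129045 (minus strand), of IAA9 at chr5:26255107-26255130 (plus strand) and of IAA18 at chr1:19306234-19306257 (plus strand).

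IAA1 degron codons: atcgttGGATGGCCTCCAgtgaga

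IAA3 degron codons: attgttGGATGGCCACCAgttaga

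IAA9 degron codons: attgtcGGTTGGCCTCCAgtgaga

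IAA18 degron codons: gtggtgGGATGGCCTCCGgttcga

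Genes with and without these codons were found on both sides of the cycloheximide response. IAA20 and IAA30, which lack them, rose, IAA33, which also lacks them, fell, and IAA31 and IAA32 did not pass the test.

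Some facts of the libraries bear on all values. No source used here gives the total reads per library, so the depth behind a value is unknown and the tests rest on the spread between the 3 libraries of a group. Within groups r between libraries was 0.9586 to 0.982, and none was a duplicate. AP1 reads, from transgene and mutated gene together, were plentiful: 1098, 1183 and 1380 FPKM untreated, 1088, 1475 and 1536 after cycloheximide, and 989.9, 1576 and 1487 under both compounds. CAL, mutated in these plants, was at 74.9, 66.7 and 63.0 FPKM untreated, 54.1, 45.1 and 42.9 after cycloheximide, and 42.2, 36.3 and 36.4 under both compounds. All 8 inflorescence and meristem markers (AP1, CAL, TFL1, LFY, STM, WUS, CLV3 and CLV1) were at 1 FPKM or more in the mean of every group. AP1 cannot mark the tissue here, since its reads include the transgene. The 7 anther and pollen markers summed to 3.12 to 7.54 FPKM per untreated library. Their sums were 0.677 to 6.92 FPKM after cycloheximide and 0.423 to 0.618 under both compounds. The anther gene A9 made up most of each untreated sum, at 2.02, 3.28 and 6.37 FPKM. It varied widely among the cycloheximide libraries, at 4.19, 0.334 and 5.76 FPKM. Under both compounds A9 was at 0.139, 0.138 and 0.247 FPKM. AMS was highest in cycloheximide replicate 1, at 1.52 FPKM. The pollen gene VGD1 was near 0 throughout. The 4 leaf and root markers summed to 3932 to 4228, 2293 to 2370 and 1994 to 2632 FPKM, nearly all of it from the photosynthesis genes RBCS1A and CAB1. The root hair gene COBL9 was near 0, while the root marker WOX5 had means of 7.57, 7.71 and 10.4 FPKM in the 3 groups. Their part in the results was not tested. In bulk tissue fewer cells of a type and less RNA per cell cannot be told apart.

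In untreated inflorescences the Aux/IAA genes spanned a wide range of levels and 3 of them made up most of the family's FPKM. IAA9 (AT5G65670, chromosome 5, 26253658 to 26256468) was highest at 426, 476 and 473 FPKM in replicates 1, 2 and 3, followed by IAA8 at 209, 225 and 276 and IAA26 at 179, 167 and 182. These 3 genes did not overlap: every library of IAA9 was above every library of IAA8, and those of IAA8 above those of IAA26. IAA9 alone held 36.5% ± 1.19 (SD, n = 3) of the summed Aux/IAA FPKM, IAA8 18.8% ± 1.75 and IAA26 14.0% ± 0.941. IAA4, IAA18, IAA27 and IAA16 followed, with means of 90.1 ± 7.98, 63.0 ± 4.98, 43.4 ± 5.68 and 40.9 ± 2.54 FPKM. The libraries of IAA27 and IAA16 overlapped.

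Below these came a middle range of means from 8.15 to 24.6 FPKM, held by IAA12, IAA13, IAA11, IAA2, IAA7, IAA28 and IAA17. IAA29, IAA3, IAA10, IAA31, IAA20, IAA30, IAA14, IAA33, IAA1 and IAA32 had means between 2.11 and 5.29 FPKM. IAA19, IAA5 and IAA6 were near the floor, with means of 0.528, 0.517 and 0.0296 FPKM, and IAA6 was listed at 0 in 2 of the 3 untreated libraries. IAA34 stayed between 0.0374 and 0.158 FPKM in all 9 libraries and was not tested.

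Of the GH3 genes, GH3.5, an enzyme known to act on indole-3-acetic acid and salicylic acid, was highest in untreated tissue at 105, 113 and 104 FPKM and held 53.1% ± 1.07 of the family's FPKM. GH3.6 was at 33.7, 41.5 and 43.9 FPKM and GH3.17, which prefers glutamate as the amino acid, at 42.4, 37.1 and 31.9, so that these overlapped. GH3.3 was at 13.4, 11.6 and 11.7 FPKM and GH3.2 at 5.14, 4.51 and 6.84. GH3.1 was barely above 0, at 0.105, 0.106 and 0.0505, and GH3.4 was listed at 0 in all 9 libraries and was not tested.

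**Figure D1:**
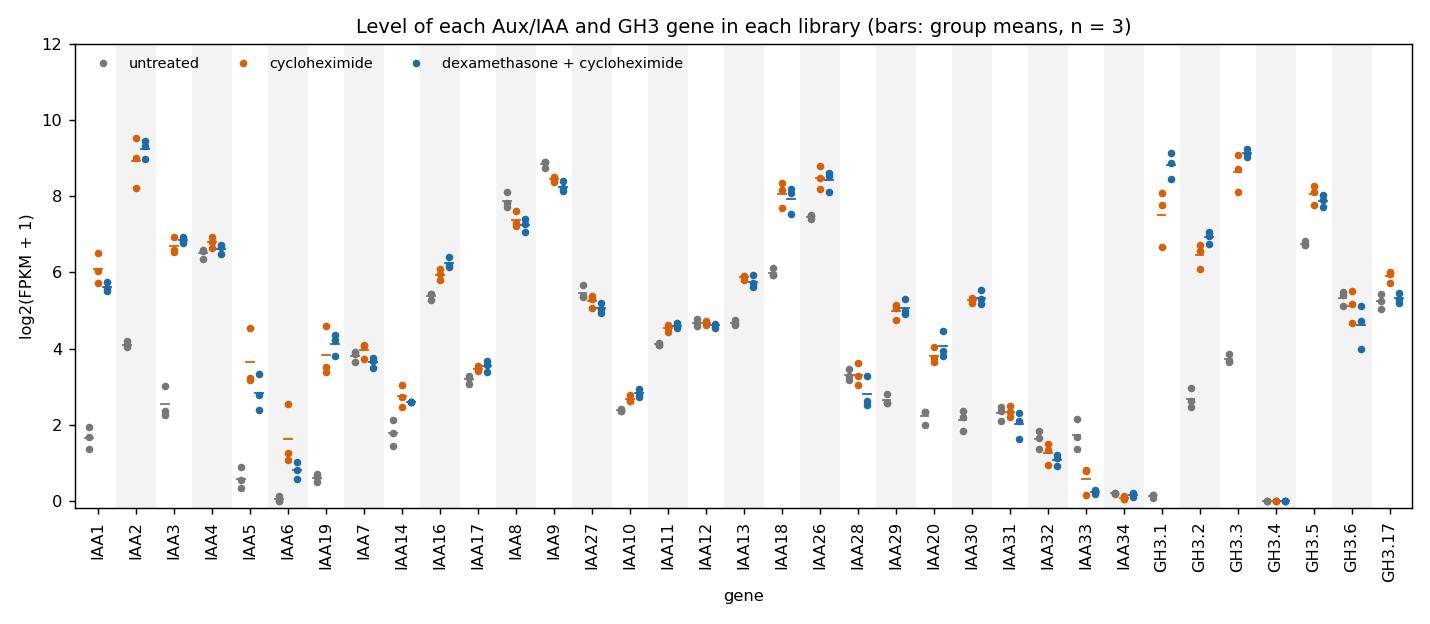
Level of the 35 genes in each of the 9 libraries, as log2(FPKM + 1); points are libraries, bars group means (n = 3). IAA9 is the highest untreated gene, and GH3.1, IAA2, GH3.3, IAA1 and IAA3 show the widest gap between grey (untreated) and coloured points.

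Cycloheximide was compared with no treatment first. The Aux/IAA and GH3 genes were mostly higher with cycloheximide: 22 of the 33 tested members rose, 3 fell (IAA8, IAA9 and IAA33) and 8 did not pass the test. GH3.1, GH3.3, IAA2, IAA1 and IAA3 had the largest changes. A call is an adjusted p under 0.05 in limma, fitted on log2(FPKM + 1) over all 20505 tested loci, and fold changes are given on that log2 scale with their SE; the scale understates changes of low genes. Cycloheximide moved much of the transcriptome: 53.5% of all tested loci were called, 26.1% higher and 27.4% lower. The members' 66.7% higher stands against that 26.1%. Their median log2 fold change was 0.97 and that of all loci -0.04, and 11 members were called higher by at least 2, against 5.94% of all loci. Libraries of the 2 groups did not overlap in 26 members, against 63.5% of all loci.

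Rises were found among members with lower and with higher untreated levels. Of 17 members with an untreated mean below 10 FPKM, a split made after the values were seen, 13 rose and 1 fell, with a median change of 1.58. Of the 16 members at or above 10 FPKM, 9 rose and 2 fell, with a median of 0.49. The filter bears on the lower set: GH3.1 and IAA6, at untreated means of 0.0870 and 0.0296 FPKM, met it only through treated libraries. Their direction was thus set in advance, here and in the counts above, while IAA34 and GH3.4, low throughout, were left out. No such split was made for all loci, so the 2 sets are not read against each other.

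**Figure D2:**
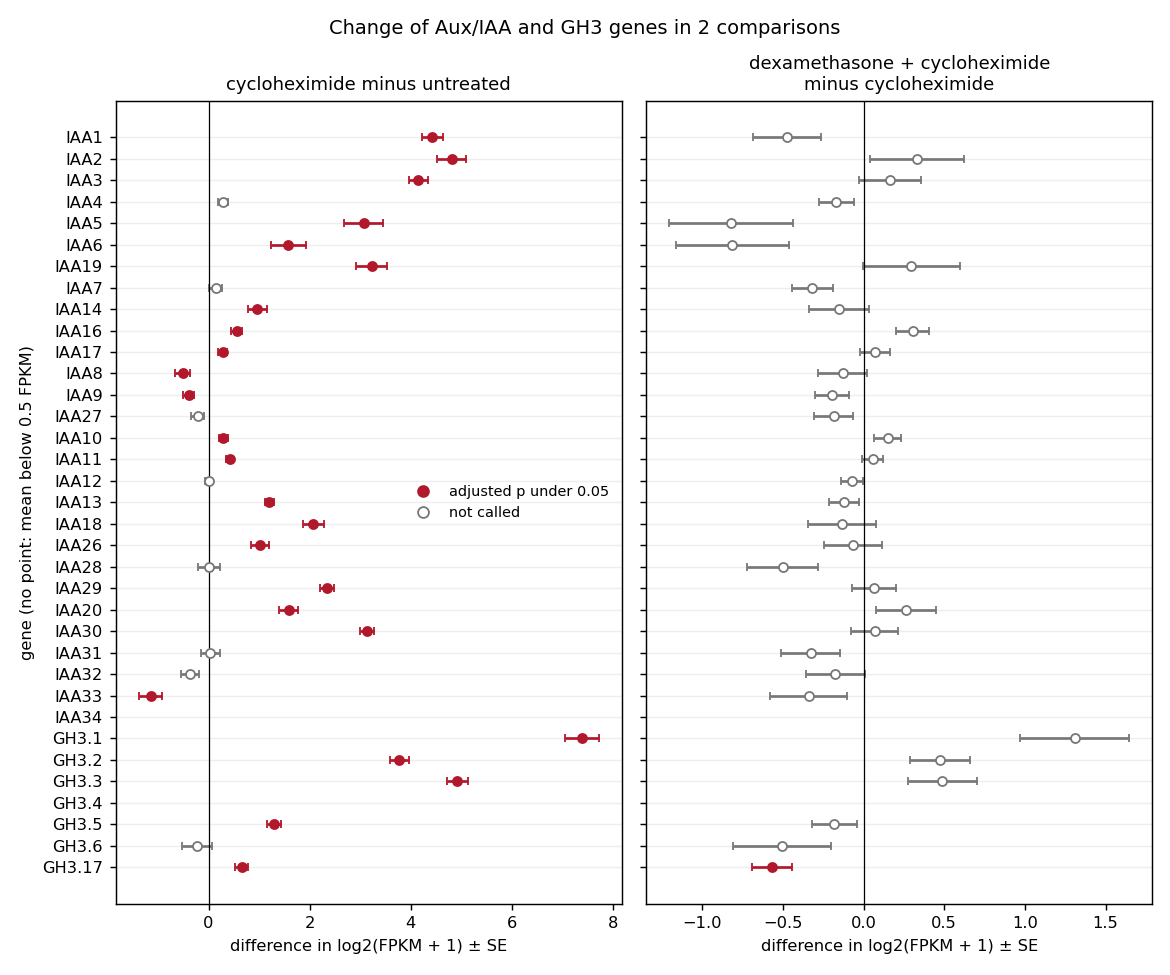
Difference in log2(FPKM + 1) with its SE for each tested gene, cycloheximide minus untreated on the left and dexamethasone + cycloheximide minus cycloheximide on the right; filled points have an adjusted p under 0.05. On the left 25 genes are filled, on the right GH3.17 only. The axes differ in scale and both panels use the same cycloheximide libraries. Libraries are not paired by replicate number in the fit shown.

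The GH3 enzymes held the largest change. GH3.1 (AT2G14960, chromosome 2, 6451251 to 6454064) went from at most 0.106 FPKM untreated to 99.9, 219 and 269 FPKM with cycloheximide. All 3 treated libraries were far above the untreated ones, and replicate 1 was the lowest of them. The log2 fold change was 7.39 ± 0.34 (adjusted p = 1.41e-06), and 9.93 with a pseudocount of 0.1 in place of 1, since the untreated level is near 0.

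GH3.3 (AT2G23170), which went from 13.4, 11.6 and 11.7 to 277, 422 and 541 FPKM, rose 33.8-fold in mean FPKM (4.92 ± 0.21, adjusted p = 1.09e-06). GH3.2 went from 5.14, 4.51 and 6.84 to 67.0, 93.7 and 104 FPKM, a rise of 3.77 ± 0.19 (adjusted p = 2.14e-06). In both genes the groups were far apart. GH3.5, already abundant, rose from 105, 113 and 104 to 307, 219 and 277 FPKM, a change of 1.30 ± 0.14 (adjusted p = 0.000127).

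GH3.17 rose least of the called GH3 genes, from 42.4, 37.1 and 31.9 to 52.1, 63.5 and 60.6 FPKM (0.65 ± 0.12, adjusted p = 0.00272), and its groups did not overlap either. GH3.6, also known as DFL1, had 24.3, 35.3 and 44.2 FPKM with cycloheximide, within reach of its untreated libraries (-0.22 ± 0.30, adjusted p = 0.558). The summed GH3 level was 202 ± 4.92 FPKM (SD, n = 3) untreated and 1059 ± 233 with cycloheximide, and its makeup differed: GH3.5 went from 53.1% to 26.4% of the sum, GH3.3 from 6.06% to 38.5% and GH3.1 from 0.043% to 17.9%.

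Among the Aux/IAA genes the closely related IAA1, IAA2, IAA3 and IAA4 were unlike each other in their change. IAA2 (AT3G23030, chromosome 3, 8180768 to 8181800) went from 15.4, 17.3 and 16.0 to 297, 512 and 732 FPKM (4.81 ± 0.29, adjusted p = 5.65e-06). The treated libraries were widely spread, with replicate 3 more than double replicate 1 and all far above the untreated level. IAA1 (AT4G14560, chromosome 4, 8361017 to 8361986) went from 1.57, 2.20 and 2.84 to 51.6, 64.5 and 90.4 FPKM (4.43 ± 0.21, adjusted p = 1.69e-06).

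IAA3 (AT1G04240), the SHY2 repressor known from root and light responses, went from 3.75, 4.09 and 7.02 to 92.2, 95.6 and 120 FPKM (4.15 ± 0.19, adjusted p = 1.58e-06). The groups of IAA1 and IAA3 were likewise well apart. IAA4 had 81.0, 95.8 and 93.4 FPKM untreated and 121, 99.5 and 110 with cycloheximide, a difference of 0.29 ± 0.11 that missed the threshold (adjusted p = 0.0531). It passed with median-ratio scaling (adjusted p = 0.0300), without loci under 300 bp (adjusted p = 0.0480) and without cycloheximide replicate 2 (adjusted p = 0.0412).

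All 3 genes of the IAA5, IAA6 and IAA19 group rose from near 0. IAA19, the MSG2 repressor of hypocotyl bending, went from 0.532, 0.634 and 0.418 to 9.39, 10.5 and 23.2 FPKM (3.22 ± 0.30, adjusted p = 6.17e-05). IAA5 went from 0.456, 0.262 and 0.834 to 8.08, 8.43 and 22.2 FPKM (3.07 ± 0.39, adjusted p = 0.000317). In both genes replicate 3 was more than double the other treated libraries. IAA6 had 0.0887, 0 and 0 FPKM untreated and 1.38, 1.09 and 4.83 with cycloheximide (1.58 ± 0.35, adjusted p = 0.00586), so that its treated level was also low.

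The IAA7, IAA14, IAA16 and IAA17 group, known from strong auxin-resistant mutants (AXR2, SLR and AXR3 are IAA7, IAA14 and IAA17), moved less. IAA14 went from 1.74, 2.42 and 3.33 to 4.56, 5.66 and 7.19 FPKM (0.97 ± 0.19, adjusted p = 0.00281) and IAA16 from 38.0, 42.5 and 42.2 to 60.8, 54.7 and 66.5 (0.56 ± 0.10, adjusted p = 0.00221). IAA17 went from 8.32, 8.70 and 7.43 to 10.6, 9.92 and 9.66 FPKM, a small rise whose groups did not overlap (0.28 ± 0.09, adjusted p = 0.0364). That call was lost in 7 of 16 other fits, with adjusted p between 0.0517 and 0.110: without untreated replicate 1 or 3, without any 1 cycloheximide library, without dexamethasone + cycloheximide replicate 2, and with no filter on the mean. IAA7, at 11.6, 14.1 and 13.5 FPKM against 15.9, 12.1 and 15.8, overlapped between groups (0.14 ± 0.13, adjusted p = 0.360).

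The most abundant untreated members went the other way. IAA9 fell from 426, 476 and 473 to 351, 362 and 332 FPKM (-0.39 ± 0.11, adjusted p = 0.0136) and IAA8 from 209, 225 and 276 to 156, 194 and 147 (-0.51 ± 0.15, adjusted p = 0.0212). In both genes every treated library was below every untreated one. The call of IAA8 was lost without untreated replicate 3 (adjusted p = 0.0670), cycloheximide replicate 1 (0.0541) or cycloheximide replicate 3 (0.0723), and that of IAA9 without untreated replicate 2 (adjusted p = 0.0537). IAA27, the third gene of this group, had 39.8, 40.5 and 49.97 FPKM untreated and 32.7, 40.6 and 38.2 with cycloheximide, which overlapped (-0.22 ± 0.12, adjusted p = 0.163).

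IAA18 and IAA26, abundant members, rose, while IAA28 of the same group did not pass the test. IAA18 went from 68.7, 60.3 and 59.99 to 205, 327 and 286 FPKM (2.07 ± 0.21, adjusted p = 0.000101). IAA26 went from 179, 167 and 182 to 289, 446 and 355 FPKM (1.02 ± 0.18, adjusted p = 0.00192). Both had their groups apart, with cycloheximide replicate 2 highest. IAA28, a root repressor, had 8.70, 10.1 and 8.03 FPKM untreated and 11.2, 7.27 and 8.63 with cycloheximide, so the groups overlapped and their means were nearly equal.

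IAA12, the BODENLOS repressor of the embryo, and its relative IAA13 parted: IAA12 had 24.5, 23.2 and 26.2 FPKM untreated and 24.8, 25.6 and 23.7 with cycloheximide, and did not pass the test (adjusted p = 0.960). IAA13 went from 24.4, 23.4 and 25.7 to 59.1, 54.8 and 59.1 FPKM (1.20 ± 0.09, adjusted p = 1.83e-05). A locus on the opposite strand overlaps IAA13 but had at most 0.0678 FPKM in any library. IAA10 and IAA11 rose slightly with groups apart, IAA10 from 4.16, 4.36 and 4.14 to 5.10, 5.21 and 5.92 FPKM (0.29 ± 0.08, adjusted p = 0.0177) and IAA11 from 16.1, 16.6 and 16.2 to 23.7, 22.2 and 20.8 (0.42 ± 0.07, adjusted p = 0.00112). IAA10 lost its call without untreated replicate 1 (adjusted p = 0.0522) or cycloheximide replicate 3 (adjusted p = 0.0599).

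IAA29, known as a gene of shade and warmth responses, went from 4.97, 4.94 and 5.97 to 32.7, 26.1 and 34.1 FPKM (2.34 ± 0.14, adjusted p = 4.98e-06). Of the members without degron codons, IAA30 went from 3.58, 4.16 and 2.55 to 38.8, 35.5 and 37.8 FPKM (3.13 ± 0.15, adjusted p = 1.52e-06). IAA20 went from 4.07, 3.997 and 2.99 to 12.4, 11.5 and 15.4 FPKM (1.58 ± 0.19, adjusted p = 0.000217). The treated libraries of IAA30 were close to each other, and both genes had their groups well apart.

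IAA31 did not pass the test, at 4.50, 4.15 and 3.27 FPKM untreated and 4.60, 4.08 and 3.59 with cycloheximide. IAA33 fell from 2.17, 3.41 and 1.57 to 0.707, 0.744 and 0.113 FPKM (-1.15 ± 0.24, adjusted p = 0.00399), with every treated library below the untreated ones. IAA32 had 2.59, 2.16 and 1.59 FPKM untreated and 1.54, 0.906 and 1.82 with cycloheximide, which did not pass the test (adjusted p = 0.121). Its value is uncertain, since the deposited locus covers 65.1% of the gene and overlaps an opposite-strand locus at 31.5 ± 3.51 FPKM untreated.

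Relative to its untreated level the summed Aux/IAA level rose less than that of GH3, which went from 202 to 1059 FPKM. The Aux/IAA sum was 1256 ± 70.6 FPKM untreated and 2310 ± 344 with cycloheximide, the larger rise in FPKM. The shares changed order. IAA9 went from 36.5% to 15.3% ± 2.70 of the sum, and IAA2 from 1.29% ± 0.0843 to 21.6% ± 6.52, which made it the highest Aux/IAA gene by mean with cycloheximide. In cycloheximide replicate 1 IAA2, at 297 FPKM, was still below IAA9, at 351, and in the other treated libraries it was above.

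**Figure D3:**
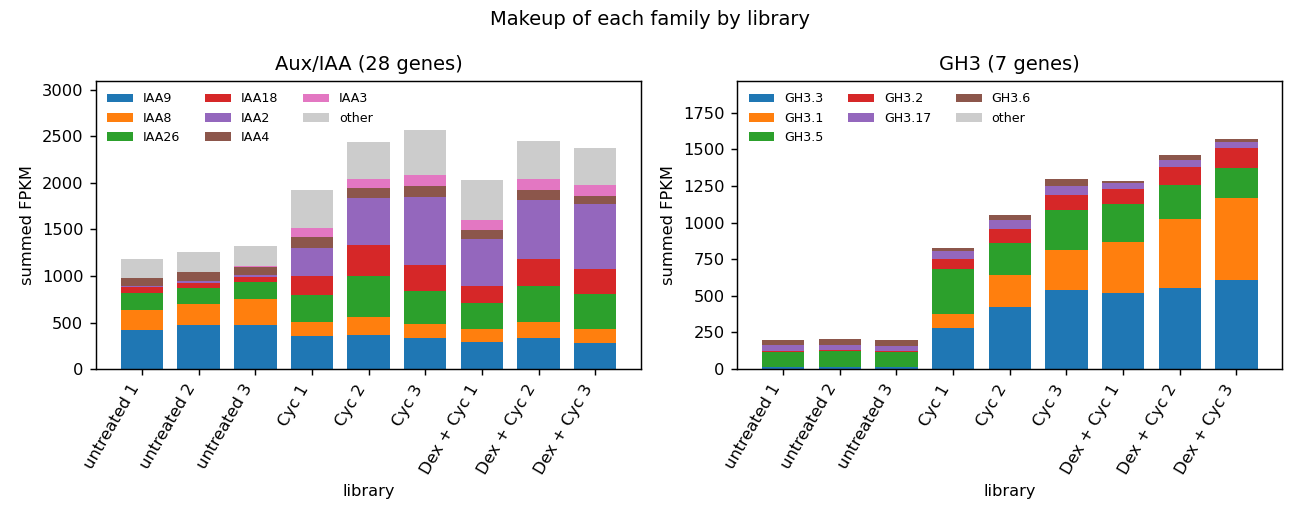
Summed FPKM of the 28 Aux/IAA genes (left) and the 7 GH3 genes (right) in each library, split by gene (Cyc, cycloheximide; Dex, dexamethasone). Untreated sums are near 1256 and 202 FPKM; with cycloheximide IAA2, GH3.3 and GH3.1 take up much of the added height.

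Neighbouring members on a chromosome were far apart in their change. In 3 pairs of Aux/IAA genes the members are transcribed away from each other, with no protein-coding gene between their starts. They are IAA14 and IAA1 on chromosome 4 (10.7 kb apart), IAA2 and IAA7 on chromosome 3 (12.5 kb) and IAA3 and IAA17 on chromosome 1 (6.39 kb). In each pair the IAA1, IAA2 or IAA3 gene changed more than its partner. The log2 difference between partners, IAA1 minus IAA14, was -0.09, -0.10 and -0.17 in untreated replicates 1, 2 and 3 and between 3.24 and 3.48 with cycloheximide.

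For IAA2 minus IAA7 it went from 0.38, 0.27 and 0.23 to 4.14, 5.29 and 5.45, and for IAA3 minus IAA17 from -0.97, -0.93 and -0.07 to 3.00, 3.14 and 3.51. In none of the 3 pairs did the groups overlap. The mean difference shifted by 3.46, 4.66 and 3.88, each with p = 0.1 in a two-sided exact permutation test, the smallest p that 3 libraries against 3 allow. This comparison of partners was chosen after the members' values were seen.

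**Figure D4:**
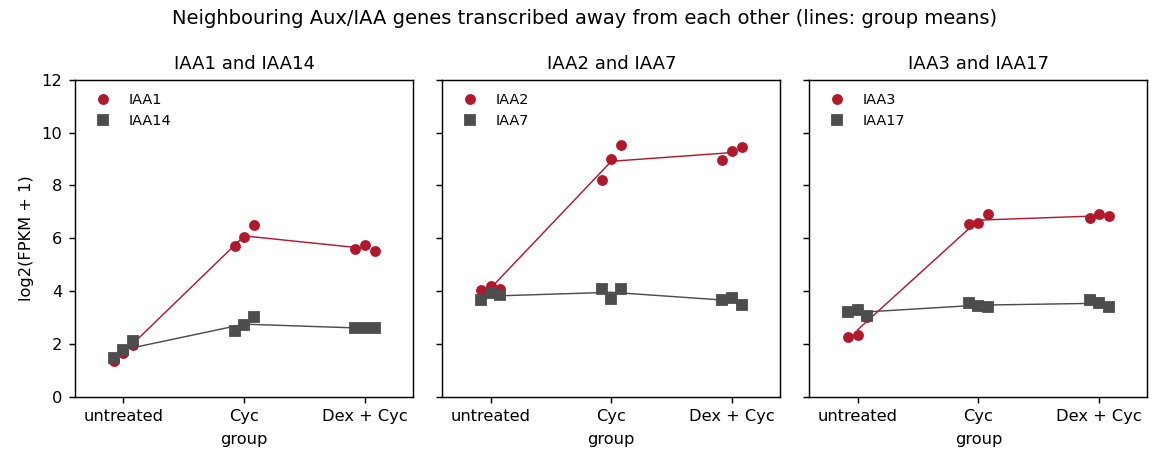
Level as log2(FPKM + 1) of both genes of the 3 neighbouring pairs in every library (Cyc, cycloheximide; Dex, dexamethasone); lines join group means, n = 3. IAA1, IAA2 and IAA3 (circles) rise by over 4 between untreated and Cyc, and their partners (squares) by less than 1.

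Dexamethasone with cycloheximide was compared with cycloheximide alone. In the fit without pairing of libraries no member rose and 1, GH3.17, fell, while 32 of 33 did not pass the test. In that fit 7 members had an unadjusted p under 0.05 in limma. The share of all loci with such a p was not counted, so these 7 are not read as an excess. Of all tested loci 3.53% were called, 1.85% higher and 1.68% lower, so 1 call among 33 members (3.03%) is near the background. Libraries of the groups did not overlap in 5 members, against 25.2% of all loci. No member was called higher by at least 2, against 0.0732% of all loci. The members' median was -0.13 and that of all loci 0.01. A p that misses the threshold does not show that levels were equal. Replicate numbers appear to pair the libraries of these groups, which the counts above leave out. With the number as a block 1 member, GH3.1, was higher and 0 were lower, and 1129 of all tested loci were called. The block fit is given below where it matters.

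GH3.17 (AT1G28130, chromosome 1, 9825286 to 9828067) had 52.1, 63.5 and 60.6 FPKM with cycloheximide and 36.0, 43.2 and 38.7 with both compounds, every library of the latter below the former. It fell by 0.57 ± 0.12 on the log2 scale (adjusted p = 0.0499), barely past the threshold. With the replicate block the adjusted p was 0.0532, and the call was lost in 14 of 16 other fits, among them all 9 that left out 1 library. Its level with both compounds was close to the untreated 42.4, 37.1 and 31.9 FPKM (0.08 ± 0.12, adjusted p = 0.574).

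GH3.1 had the largest positive difference of the members: 346, 466 and 562 FPKM with both compounds against 99.9, 219 and 269 with cycloheximide. The groups did not overlap, and the difference of 1.31 ± 0.34 missed the threshold (adjusted p = 0.0707). It passed with the replicate block (adjusted p = 0.0470) and without cycloheximide replicate 3 (adjusted p = 0.0408), and in the other 14 fits it did not.

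GH3.2, at 107, 124 and 133 FPKM against 67.0, 93.7 and 104, was also apart between groups (0.47 ± 0.19, adjusted p = 0.181). GH3.3 had 520, 555 and 605 FPKM against 277, 422 and 541, with overlap (0.49 ± 0.21, adjusted p = 0.221). GH3.5 had 259, 237 and 208 FPKM against 307, 219 and 277 (-0.18 ± 0.14, adjusted p = 0.481). GH3.6 was at 14.8, 33.6 and 25.4 FPKM against 24.3, 35.3 and 44.2, again overlapping (-0.51 ± 0.30, adjusted p = 0.361).

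None of the 27 tested Aux/IAA genes passed. Their differences ran from -0.82 for IAA5 to 0.33 for IAA2. IAA2 had 502, 633 and 697 FPKM with both compounds, inside the range seen with cycloheximide alone (adjusted p = 0.547). IAA1 had 47.1, 52.5 and 44.8 FPKM against 51.6, 64.5 and 90.4 (-0.47 ± 0.21, adjusted p = 0.224), and the highest of the former lay just above the lowest of the latter.

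IAA3, at 109, 121 and 113 FPKM, was within reach of its cycloheximide libraries. IAA16, at 72.5, 69.6 and 83.6 FPKM against 60.8, 54.7 and 66.5, was apart between groups (0.30 ± 0.10, adjusted p = 0.124), as was IAA6, at 0.489, 1.04 and 0.752 FPKM against 1.38, 1.09 and 4.83 (-0.81 ± 0.35, adjusted p = 0.214). The summed Aux/IAA level was 2283 ± 220 FPKM with both compounds and that of GH3 1438 ± 146.

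Libraries of 1 group differed in how far these genes had moved. Of the 22 members that rose with cycloheximide, replicate 1 was the lowest of the 3 cycloheximide libraries in 13 and replicate 3 the highest in 14. The same order was seen in loci that are no members. For this, 3136 other loci were taken that were called against untreated in both treated groups, in the same direction and by at least 1 in size. Over them the mean change in the direction of the response was 1.98, 2.32 and 2.59 in cycloheximide replicates 1, 2 and 3. With both compounds it was 2.66, 2.70 and 2.93, above every cycloheximide library. These loci were chosen by their values in the same libraries, after the members' values were seen, and the part of this spread in the GH3.1, GH3.2 and GH3.3 differences was not tested.

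Against untreated tissue, dexamethasone with cycloheximide left 20 members higher and 5 lower, with 8 not passing the test. Of all tested loci 63% were called, 30.7% higher and 32.3% lower. Libraries of the 2 groups did not overlap in 27 members, against 69.4% of all loci, and 10 members were called higher by at least 2, against 7.89%. This comparison shares its untreated libraries with the first, and its treated libraries with the second, so its values are given only side by side. GH3.1 differed by 8.70 ± 0.34 here and by 7.39 with cycloheximide alone, IAA2 by 5.14 ± 0.29 and 4.81, and IAA1 by 3.95 ± 0.21 and 4.43. IAA8, IAA9 and IAA33 were lower here too, at 133, 167 and 153 FPKM, 297, 336 and 280 FPKM, and 0.167, 0.142 and 0.222 FPKM.

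IAA27 and IAA32 joined them, IAA27 at 29.8, 35.9 and 32.1 FPKM (-0.40 ± 0.12, adjusted p = 0.0188) and IAA32 at 0.883, 1.31 and 1.17 (-0.55 ± 0.18, adjusted p = 0.0290). IAA6 and GH3.17, called higher with cycloheximide, were not called here, with adjusted p of 0.0889 and 0.574; IAA6 was called with a pseudocount of 0.1 (adjusted p = 0.00340), on the 6 libraries alone (0.00532) and without cycloheximide replicate 3 (0.00315). IAA27 lost its call without untreated replicate 3 (adjusted p = 0.0590), dexamethasone + cycloheximide replicate 1 (0.0598) or 3 (0.0513), and IAA32 without untreated replicate 1 or 2 or dexamethasone + cycloheximide replicate 1 or 3 (adjusted p of 0.0572 to 0.101). The value of IAA32 is uncertain for the reason given above: its mean went from 2.11 to 1.42 and 1.12 FPKM over the groups, and that of the overlapping opposite-strand locus from 31.5 to 20.6 and 17.9 FPKM, whose part in the call was not tested. The remaining called members lay in the ranges of the plot of levels by library: IAA18 at 186 to 289 FPKM, IAA26 at 278 to 389, IAA13 at 48.0 to 59.9, IAA29 at 28.8 to 38.2, IAA30 at 34.9 to 45.2 and IAA20 at 13.1 to 21.0.

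Lower down, IAA19 was at 13.0 to 19.4 FPKM with both compounds, IAA5 at 4.22 to 9.12, IAA14 at 5.02 to 5.08, IAA17 at 9.44 to 11.8, IAA10 at 5.61 to 6.60 and IAA11 at 22.1 to 24.3. These genes were all called higher than untreated. IAA4, IAA7, IAA12, IAA28, IAA31 and GH3.6 were not called, with means of 97.7, 11.5, 23.4, 6.20, 3.11 and 24.6 FPKM. Leaving out dexamethasone + cycloheximide replicate 2 brought in IAA28 (adjusted p = 0.00822) and GH3.6 (0.0231), and leaving out cycloheximide replicate 1 brought in GH3.6 (0.0490).

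Other genes of the pathway were read from lists of their own. Of 13 listed genes of the auxin receptors and their ubiquitin ligase 11 were tested, CUL1 being left out for its status and RCE1 because its locus also covers 5 other genes of the same strand. With cycloheximide 1 rose and 3 fell, with a median of -0.12 against -0.04 for all loci, of which 26.1% rose and 27.4% fell. The receptor gene AFB1 went from 72.6, 64.0 and 72.0 to 52.6, 44.5 and 38.5 FPKM (-0.62 ± 0.13, adjusted p = 0.00403). AFB1 is also covered by a longer locus of the same strand that lists many genes and was not used, at 399, 200 and 228 FPKM in the means of the untreated, cycloheximide and both-compound groups, and its end overlaps an opposite-strand locus at 29.5, 30.6 and 32.2 FPKM. How reads were shared among these was not tested. The ligase subunit gene ASK1 fell by 0.87 ± 0.13 (adjusted p = 0.000729). The ring-finger subunit gene RBX1 fell by 0.27 ± 0.09 (adjusted p = 0.0328), a call lost without any 1 untreated library or cycloheximide replicate 2 or 3 (adjusted p up to 0.105). The 1 rise, AFB4 (1.08 ± 0.13, adjusted p = 0.000222), is uncertain: an overlapping locus on the opposite strand went from 28.9 ± 11.8 to 479 ± 130 FPKM, and the strand handling of these libraries is not settled. None of the 11 was called between both compounds and cycloheximide alone. TIR1, the best-known receptor, was at 84.8 ± 1.73, 76.4 ± 6.98 and 81.4 ± 3.72 FPKM untreated, with cycloheximide and with both compounds.

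Of the 5 activating ARFs, the factors that Aux/IAA proteins hold back, ARF19 rose with cycloheximide from 9.53, 10.1 and 13.2 to 20.4, 35.1 and 37.3 FPKM (1.39 ± 0.26, adjusted p = 0.00257). ARF8 fell from 76.5, 81.5 and 82.9 to 41.3, 43.1 and 37.9 FPKM (-0.96 ± 0.08, adjusted p = 3.76e-05) and ARF6 fell by 0.47 ± 0.08 (adjusted p = 0.00145). ARF6, a factor of flower maturation, was also lower with both compounds than with cycloheximide alone, at 83.0, 82.6 and 78.1 FPKM against 114, 104 and 97.0 (-0.36 ± 0.08, adjusted p = 0.0490). That call held with the replicate block (adjusted p = 0.0396) but was kept in 6 of 16 other fits in all, and in 1 of the 9 without 1 library, that without cycloheximide replicate 3. ARF5, the MONOPTEROS factor of flower initiation, was at 189 ± 12.4 FPKM untreated and did not pass the test (-0.23 ± 0.14, adjusted p = 0.198). Of 4 tested TOPLESS corepressor genes (TPL was left out for its status) 1 fell with cycloheximide, TPR1 (-0.61 ± 0.08, adjusted p = 0.000316), with TPR2 next by p (-0.21 ± 0.08, adjusted p = 0.0603). For the ARFs and corepressors alike, the share of all loci was 26.1% higher and 27.4% lower with cycloheximide.

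Genes that inactivate auxin by other routes or release it from conjugates rose in 5 of 7 tested cases with cycloheximide and fell in none, against 26.1% of all loci that rose and 27.4% that fell, with a median of 0.45 (UGT84B1, near 0 FPKM, was not tested). IAR3, an amidohydrolase that frees auxin from its alanine conjugate, went from 72.8, 58.6 and 44.4 to 110, 168 and 145 FPKM (1.26 ± 0.22, adjusted p = 0.00161). DAO2, which belongs to the auxin-oxidising dioxygenases, rose by 2.08 ± 0.40 (adjusted p = 0.00282), ILL2 by 0.45 ± 0.09 (adjusted p = 0.00391) and ILL6 by 1.44 ± 0.32 (adjusted p = 0.00602). The fifth was DAO1 (0.42 ± 0.14, adjusted p = 0.0322), a call lost without untreated replicate 2 or 3 or cycloheximide replicate 2 or 3 (adjusted p up to 0.109). ILL2 overlaps an opposite-strand locus at 583 FPKM untreated and 358 with cycloheximide, so its value is uncertain. None of the 7 was called between both compounds and cycloheximide alone, where DAO1 was nearest with 36.1 ± 4.23 against 24.9 ± 3.33 FPKM (adjusted p = 0.0755). Of 3 related GH3 enzymes that are not auxin-conjugating, PBS3, of salicylic acid synthesis, rose by 3.37 ± 0.33 (adjusted p = 7.78e-05) and JAR1, which makes the active jasmonate, by 0.74 ± 0.15 (adjusted p = 0.00362). GH3.10 did not pass the test (-0.59 ± 0.25, adjusted p = 0.0795).

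In the other comparisons these lists looked as follows. Against untreated tissue, with both compounds, 1 receptor or ligase gene was higher and 4 were lower, where 30.7% of all loci were higher and 32.3% lower, led by AFB1 (at 38.4, 34.1 and 30.6 FPKM), ASK1 (-0.92 ± 0.13), RBX1 (-0.46 ± 0.09) and, upward, the uncertain AFB4 (1.34 ± 0.13). Of the ARFs ARF19 was higher (1.74 ± 0.26) and ARF8 (-1.08 ± 0.08) and ARF6 (-0.83 ± 0.08) were lower. TPR1 was lower (-0.64 ± 0.08) and TPR3 higher (0.18 ± 0.06, lost without untreated replicate 1 or 2 or dexamethasone + cycloheximide replicate 2). In the inactivation and hydrolysis list 6 of 7 were higher, among them DAO2 (3.31 ± 0.40), IAR3 (1.90 ± 0.22), DAO1 (0.93 ± 0.14) and ILL2 (0.68 ± 0.09), and PBS3 (4.16 ± 0.33) and JAR1 (0.69 ± 0.15) of the related GH3 enzymes were higher too. Between both compounds and cycloheximide alone ARF6 was the only call in these 5 lists of 30 tested genes, where 3.53% of all loci were called. The nearest of the others by p were AFB1 (-0.38 ± 0.13, adjusted p = 0.126) and AFB4 (0.26 ± 0.13, 0.263) of the receptors, ARF8 (-0.12 ± 0.08, 0.429) of the ARFs, TPR3 (0.17 ± 0.06, 0.146) and TPR1 (-0.034 ± 0.077, 0.834) of the corepressors, DAO2 (1.24 ± 0.40, 0.115) after DAO1, and PBS3 (0.80 ± 0.33, 0.195) and GH3.10 (0.32 ± 0.25, 0.490) of the related GH3 enzymes.

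The marker genes of the tissue were read in the same way. With cycloheximide 3 of the 8 inflorescence and meristem markers rose and 2 fell, where 26.1% of all loci rose and 27.4% fell. The meristem genes CLV1, a receptor kinase, and WUS, a homeodomain factor, rose by 0.59 ± 0.07 and 0.75 ± 0.10 (adjusted p = 0.000187 and 0.000544 in limma). STM, also a meristem gene, fell by 0.78 ± 0.14 (adjusted p = 0.00171) and CAL by 0.52 ± 0.11 (adjusted p = 0.00492). The value of STM is uncertain, since a short locus of the same strand lies inside it and has the higher FPKM. Of the 3 tested leaf and root markers CAB1 fell by 1.26 ± 0.11 (adjusted p = 5.16e-05) and RBCS1A by 0.70 ± 0.20 (adjusted p = 0.0168), the latter a call lost without untreated replicate 1 or 2 or cycloheximide replicate 2 (adjusted p up to 0.0542). The anther gene A9, the only tested one of its list, did not pass the test (-0.34 ± 0.58, adjusted p = 0.642).

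Between both compounds and cycloheximide alone 1 of these 12 tested markers was called, where 3.53% of all loci were. TFL1, which keeps the inflorescence meristem from becoming a flower, was at 40.7, 43.4 and 31.8 FPKM against 165, 144 and 117 (-1.85 ± 0.15, adjusted p = 0.00263), and it had been at 156, 157 and 136 untreated. The groups were far apart. Next by p were WUS (0.43 ± 0.10, adjusted p = 0.0637), A9 (-1.62 ± 0.58, 0.144), CAB1 (0.23 ± 0.11, 0.270) and WOX5 (0.44 ± 0.40, 0.568) of their lists. Against untreated tissue, with both compounds, 3 inflorescence markers were higher and 4 lower, where 30.7% of all loci were higher and 32.3% lower. First by p were TFL1 (-1.93 ± 0.15), WUS (1.18 ± 0.10), STM (-1.19 ± 0.14) and CAL (-0.82 ± 0.11). CAB1 (-1.03 ± 0.11), RBCS1A (-0.75 ± 0.20) and A9 (-1.96 ± 0.58) were lower there, A9 not without untreated replicate 3 (adjusted p = 0.0588).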

How the data were processed

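Messenger RNA of 9 inflorescence libraries was compared, 3 per group, grouped by the labels. TopHat, Cufflinks and Cuffdiff and the TAIR10 build are named in the submitters' processing notes. Not given in the sources used here are their versions and settings, the scaling between libraries and the treatment of reads that match several genes. Values were deposited as FPKM per locus with a quantification status, which was other than OK for 77 of 33871 loci. FPKM is relative, so abundant loci can lower others. The series describes strand-specific libraries, but the kit in the labels keeps no strand information, which makes overlapping loci uncertain. Total reads per library are unknown, so no counting interval is given.

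Each member was the same-strand locus listing its ID, the longest where there were several. Genes of the other lists took the same-strand locus that best matched the gene's extent, and were not tested where it covered other genes of that strand. Coordinates of loci are those of the deposited table on TAIR10; genes, windows and coding sequences are from RefSeq TAIR10.1, in which 39.8% of single-gene loci had the same start and 80.5% of 27576 pairs lay within 200 bp at both ends. Tests covered the 20505 loci whose status was OK throughout and whose FPKM averaged at least 0.5. They were made in R 4.3.3 by limma 3.58.1, on log2(FPKM + 1) with trend, moderated variances and Benjamini-Hochberg adjustment over all of them; all 9 libraries were fitted together with 6 residual degrees of freedom. Only the shifts in log2 difference between neighbouring genes used exact permutation tests. The pipeline was tested on simulated data. Tables came from Python 3.11.15 with numpy 2.4.6 and pandas 2.3.3, figures from matplotlib 3.10.9.

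Members, pathway lists and markers were chosen with earlier results of these data known. Every member is given, of each other list, markers included, the called genes with the smallest p, at most 4 per comparison, or the 2 of smallest p, and AP1 and CAL. The labels give the groups the same replicate numbers and call the replicates biological. Deviations from group means of same-numbered libraries correlated with r of 0.352, 0.130 and 0.215 between both compounds and cycloheximide, so the numbers were taken to pair these, and with r of at most 0.110 against untreated libraries, where they were not. Other pseudocounts, filters, scaling, fits on 6 libraries, the replicate block and leaving out each library were tried. The promoter and degron searches, the level split and the response over other loci were chosen after the members' values were seen, and the promoters printed were picked again after the search.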

Additional observations from a re-analysis of the deposited data

How the results depend on the processing

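With cycloheximide against untreated, 21 of 25 called members kept their call in all 16 other fits, and with both compounds against untreated 23 of 25. The former exceptions were IAA8, IAA9, IAA10 and IAA17, the latter IAA27 and IAA32. Leaving out 1 library gave 20 to 22 members higher and 2 to 3 lower with cycloheximide, and 20 to 21 higher and 3 to 7 lower with both compounds, against 5 lower with all libraries. The replicate block, whose numbers do not pair these groups, brought GH3.6 and IAA31 into the calls of both compounds against untreated and took IAA32 out.

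Between both compounds and cycloheximide the calls were less stable. Among all loci 724 were called, 46 in the fit on only the 6 libraries compared, 1129 with the replicate block, and 78 to 1293 when 1 library was left out. Higher calls were 52.5% of all calls, 42.6% with a pseudocount of 0.1, 39.1% on the 6 libraries, 58.3% with the block, and from 35.9% without dexamethasone + cycloheximide replicate 3 to 63.5% without cycloheximide replicate 3. The 1 member lower became 0 with a pseudocount of 0.1, with no filter on the mean, with median-ratio scaling, in the fit on 6 libraries, with the replicate block and in all 9 fits without 1 library. No member was higher except 1, GH3.1, with the block, and 0 to 1 without 1 library.

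No called result changed direction. Uncalled differences near 0 did, ranging over the fits without 1 library as follows. With cycloheximide IAA28 ranged from -0.15 to 0.13 (-0.00060 with a pseudocount of 0.1), IAA12 from -0.035 to 0.047, IAA31 from -0.070 to 0.11 and GH3.6 from -0.42 to 0.0030. Between both compounds and cycloheximide IAA2 ranged from -0.017 to 0.63, IAA18 from -0.33 to 0.061, IAA26 from -0.22 to 0.093, IAA29 from -0.056 to 0.14 and IAA30 from -0.032 to 0.15. With both compounds against untreated GH3.17 ranged from -0.017 to 0.18. The cause was not tested. Unknown depth limits what can be said of genes near 0 FPKM.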
